A study of Homo sapiens with 31 samples.

Results

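Solute carrier (SLC) genes were examined as targets in miRNA–target chimeras from Huh-7.5 cells, an established human hepatoma line. The members were all interactions whose deposited gene symbol begins with SLC and a digit, which leaves out the organic anion transporters named SLCO. This gave 297 of the 32712 interactions in the table, at 117 genes. They were compared with the 21664 interactions at the 6952 other genes, so SLC genes held 1.35% of the interactions with a gene symbol. An interaction is 1 miRNA found joined to 1 target region of 75 nt, and N is the number of individually cloned chimeric reads behind it. One member, SLC2A4RG, has a matching symbol but encodes a regulator of the glucose transporter gene SLC2A4 and no transporter. It held 1 interaction and was kept, since the rule names it.

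The chimeras came from Argonaute (AGO) complexes that ultraviolet light had cross-linked to RNA in the cell. A miRNA that is ligated to the RNA fragment it lies on is then sequenced with it as a single read. The study had 31 libraries in 10 groups. By standard AGO HITS-CLIP, 7 libraries came from untreated cells, 4 from mock-treated cells, 4 from cells given LNA-122 and 4 from cells given miravirsen, both of which are oligonucleotides that inhibit miR-122. By CLEAR-CLIP there were 2 libraries in each of 6 groups. All but 1 of these groups had no T4 RNA ligase in the ligation step, and the libraries with T4 RNA ligase were made with low RNAse A and no stated change to HSPC117. The others were low RNAse A with no change to HSPC117, low RNAse A with HSPC117 siRNA, low RNAse A with HSPC117 over-expression, high RNAse A with HSPC117 over-expression and RNAse T1 with HSPC117 over-expression. HSPC117 is an RNA ligase of the cell. The deposited interactions are pooled over libraries and none can be traced to a library or a treatment. There were therefore no replicates, and the intervals and p-values given here cover the sampling of interactions only. Interactions at one gene are not independent of each other. As a check of the cell type, all 10 hepatocyte and hepatoma markers had interactions, 228 in all, against 2 of 5 neuronal markers and 0 of 4 immune and 0 of 5 fibroblast and endothelial markers. A count of 0 among the interactions with a gene symbol allows a share of up to 0.0137%.

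Solute carriers are membrane proteins that move amino acids, sugars, ions, metals, vitamins and metabolites across the plasma membrane and the membranes of organelles. In the liver they feed amino acid and glucose metabolism, take up bile acids, export iron and link the mitochondrial matrix with the cytosol. A miRNA guides AGO to RNA chiefly through its seed, bases 2 to 8 from the 5′ end. Matches classed here as canonical are 6mers, including offset ones, both kinds of 7mer (7mer-m8 and 7mer-A1) and 8mers. All are target sequences that match the seed without a mismatch or bulge. The deposited duplex did not always pair the whole match. The liver miRNA miR-122 is known from the literature to repress SLC7A1, a cationic amino acid transporter.

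The miRNAs that carry the results are shown with the seed in capitals, from RefSeq on GRCh38.p14. Of the 80 miRNAs at SLC genes, 66 matched a RefSeq name, and these held 248 of the 297 interactions. The first set is the miR-17 seed family, whose members share bases 2 to 8 and met at single sites of SLC genes.
miR-17-5p: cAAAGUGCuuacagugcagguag
miR-20a-5p: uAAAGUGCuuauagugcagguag
miR-93-5p: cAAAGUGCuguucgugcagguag
miR-106b-5p: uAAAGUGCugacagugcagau
The second set holds other seeds that were frequent at SLC genes. The seeds of miR-92a-3p and miR-25-3p are the same, and miR-122-5p is the abundant miRNA of liver.
miR-92a-3p: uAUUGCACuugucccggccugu
miR-25-3p: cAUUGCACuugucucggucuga
miR-16-5p: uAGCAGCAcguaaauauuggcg
miR-122-5p: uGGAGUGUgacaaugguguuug
miR-26a-5p: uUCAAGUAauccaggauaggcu

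The SLC interactions with the most reads were those of miR-17-5p at SLC40A1 (N = 6) and at SLC25A28 (N = 5). SLC40A1 encodes ferroportin, the iron exporter of the plasma membrane, and SLC25A28 encodes mitoferrin-2, which carries iron into mitochondria. The SLC40A1 region lay in the 3′-UTR on the minus strand of chromosome 2 (hg18 190133684 to 190133759, coordinates as listed) and had a 7mer-m8 match. A miR-20a-5p interaction (N = 1) began 1 nt away, and its 7mer-m8 match fell on the same position. A miR-93-5p interaction (N = 1) overlapped both regions, but its 7mer-m8 match was a separate one, 34 nt from the first. At SLC25A28 the target was coding sequence (CDS) on the minus strand of chromosome 10 (101360886 to 101360961). There miR-17-5p and miR-93-5p (N = 3) shared a single 8mer match, with region starts 13 nt apart. At SLC29A2, an equilibrative nucleoside transporter, miR-17-5p (N = 2) and miR-106b-5p (N = 1) shared an 8mer match in the 3′-UTR on chromosome 11 (65886861 to 65886936 for miR-17-5p). Reads that fitted several miRNAs equally well were given to one of them at random by the authors, so members with nearly the same sequence cannot be fully told apart.

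These duplexes are printed as the miRNA with every base that the authors' RNAhybrid map gives as paired in capitals, G:U pairs included. In the whole table the map was 1 base shorter than the miRNA in 99.3% of 27125 interactions with a RefSeq sequence, and 99.96% of the G:U symbols fell on a G or a U when the map was read from position 2.
SLC40A1 with miR-17-5p: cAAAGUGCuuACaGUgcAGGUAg
SLC40A1 with miR-20a-5p: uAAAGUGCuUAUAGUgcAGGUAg
SLC40A1 with miR-93-5p: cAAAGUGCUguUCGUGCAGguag
SLC25A28 with miR-17-5p: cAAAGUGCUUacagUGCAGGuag
SLC25A28 with miR-93-5p: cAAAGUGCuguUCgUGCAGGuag
SLC29A2 with miR-17-5p: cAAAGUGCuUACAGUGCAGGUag
SLC29A2 with miR-106b-5p: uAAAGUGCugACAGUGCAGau
The authors had RNAhybrid force pairing in the seed wherever the region held a seed match, so the paired seed of these 8mer and 7mer-m8 sites follows from their method. Beyond the seed, all of them had a second paired stretch towards the 3′ end. The minimum free energy from RNAhybrid, a score with no unit named in the table, was lowest for SLC29A2 with miR-17-5p, at -30.3 with 19 bases paired. It was -23.2 for SLC40A1 with miR-17-5p (16 bases paired) and -26.4 for SLC25A28 with miR-17-5p (15 bases paired).

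The miR-17 seed family as a whole held 46 SLC interactions at 33 genes, 15.5% of all (95% Wilson interval 11.8 to 20.0), against 12.9% (12.5 to 13.4) of the interactions at other genes. Of these 46, 27 were intronic, 10 in 3′-UTRs and 5 in CDS only. Canonical matches made up 24 of the 46, 52.2%, against 45.4% for the same family at other genes. Among the 15 SLC interactions with N of at least 2, 5 belonged to this family, at 4 genes, and they held 18 of the 40 reads. The fourth gene was SLC35D1, a carrier of nucleotide sugars into the endoplasmic reticulum, where miR-17-5p (N = 2) had a 7mer-m8 match in a region labelled both 3′-UTR and intron. The family's share among repeated interactions at other genes is not given here, so nothing is read from the 5 of 15.

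miR-122-5p held 14 SLC interactions at 13 genes, and 8 of them fell in the families that carry amino acids and neurotransmitters. It made up 10.4% of the 77 interactions of those families (5.36 to 19.2) and 2.73% of the 220 at all other SLC genes (1.26 to 5.82), beside 3.29% at genes other than SLC genes. miR-17-5p also had 8 of the 77 (10.4%), and it had 22 of the 220 (6.70% to 14.7%). The split was noticed in the data and is given as a description. The count includes 8 libraries from cells given a miR-122 inhibitor, whose part in it was not tested. SLC7A5, the large neutral amino acid exchanger LAT1, had 2 sites in its 3′-UTR on chromosome 16, an 8mer (86421505 to 86421580, N = 1) and a 6mer (86423959 to 86424034, N = 2). SLC1A5, which carries glutamine and other neutral amino acids, had a 7mer-A1 in its 3′-UTR, and SLC7A6, which exchanges cationic for neutral amino acids, had a 7mer-A1 in an intron. The interaction with the most reads was at SLC38A2 (N = 4), a sodium-coupled neutral amino acid transporter, in CDS on chromosome 12 (45044487 to 45044562). Its seed match was imperfect, with a mismatch at miRNA position 4.
SLC7A5 with miR-122-5p, 8mer: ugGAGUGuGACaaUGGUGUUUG
SLC7A5 with miR-122-5p, 6mer: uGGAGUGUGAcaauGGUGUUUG
SLC38A2 with miR-122-5p: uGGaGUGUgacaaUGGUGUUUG
The last bases of miR-122-5p were paired in all of these duplexes. At the SLC7A5 8mer the deposited duplex paired 5 of the 7 seed bases, so it does not show the full 8mer pairing. By the authors' account, forced pairing raised the match between seed motifs and duplexes without making it complete.

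The remaining amino acid genes with miR-122-5p were SLC38A1 and SLC43A1, with imperfect seed matches in introns, and SLC6A11, with a 6mer in an intron (N = 2). Outside these families, SLC2A11, of the glucose transporter family, had an 8mer in CDS. SLC16A1, a monocarboxylate transporter for lactate and pyruvate, and SLC10A7, of the bile acid transporter family, each had a 7mer-A1 in an intron. SLC25A13, SLC25A28 and SLC12A7 had no canonical match for it. SLC7A1, the textbook target, had 2 interactions, of miR-103a-3p in the 3′-UTR and of miR-17-5p in an intron. miR-122-5p was not detected there, in 0 of the 726 interactions it had at genes, which allows a share of up to 0.413%. The pool includes 8 libraries from cells given a miR-122 inhibitor. For LNA-122 and for miravirsen the study lists more unique chimeras than for mock. How far this sets the 0 and the other miR-122-5p counts was not tested.

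Ranked by frequency, miR-17-5p led with 30 of the 297 SLC interactions, 10.1% (7.17 to 14.1), against 7.75% (7.40 to 8.11) at other genes. It was followed by miR-92a-3p with 17, miR-122-5p, miR-16-5p and miR-320a with 14 each, miR-26a-5p with 13 and miR-186-5p with 12. The 12 most frequent miRNAs held 52.5% of SLC interactions and 49.3% of those at other genes, and 39 of the 80 miRNAs were seen once. miR-30a-5p tied with miR-23a-3p for the last of these places, with 7 each. For the other 11 the shares at SLC genes and at other genes differed by at most 1.43 points, and the intervals overlapped for every one of the 12. Over all 80 miRNAs, 6 had intervals that did not overlap, and 5 of these had 1 or 2 SLC interactions. The remaining one was miR-25-3p, with 5 SLC interactions, 1.68% (0.721 to 3.88) against 0.572% (0.480 to 0.682). It was picked out after its values were seen and was not tested.

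**Figure D1:**
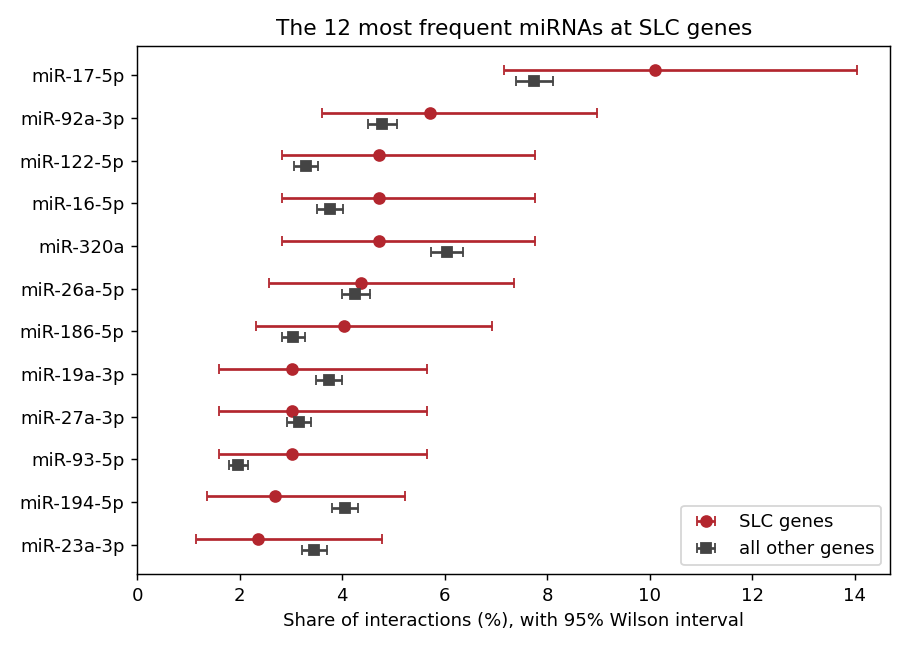
Share of interactions (%, horizontal axis) held by each of the 12 most frequent miRNAs at SLC genes (circles, n = 297) and at all other genes (squares, n = 21664), with 95% Wilson intervals as bars. miR-17-5p leads at 10.1% and 7.75%, and the intervals of both sets overlap for every miRNA.

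Canonical matches made up 17 of the 30 SLC interactions of miR-17-5p, 8 of 14 for miR-122-5p, 7 of 14 for miR-320a and 5 of 9 for miR-27a-3p. At other genes the canonical shares of these miRNAs were 44.4%, 46.5%, 33.4% and 29.3% in the same order. The counts were 6 of 17 for miR-92a-3p, 5 of 14 for miR-16-5p, 5 of 12 for miR-186-5p, 3 of 9 for miR-93-5p and 3 of 8 for miR-194-5p, with 27.4%, 40.9%, 34.4%, 48.8% and 26.5% at other genes. They were 1 of 13 for miR-26a-5p, 1 of 9 for miR-19a-3p and 1 of 7 for miR-23a-3p, with 25.9%, 16.3% and 36.0% at other genes. miR-93-5p and miR-17-5p have the same seed. With so few SLC interactions per miRNA these shares are imprecise and were not tested.

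Over all miRNAs, 118 of 297 SLC interactions had a canonical match, 39.7% (34.3 to 45.4), against 32.9% (32.3 to 33.5) at other genes. The difference of 6.83 percentage points (1.39 to 12.5) passed a two-sided Fisher's exact test (p = 0.0152, adjusted p = 0.0318 by Benjamini–Hochberg over the 5 shares tested). The call was lost when SLCO genes were counted as members (5.21 points, Fisher's exact, adjusted p = 0.0919). The most frequent canonical type was the 7mer-m8, with 35 interactions (11.8%, against 8.35% at other genes), and 8mers made up 7.74% and 7.47%. Matches with 1 mismatch were 29.0% and 29.4%, matches with 1 bulge 13.1% and 16.2%, and interactions with no seed match 12.5% and 13.4%. The share was higher at SLC genes in each region, by 1.55 points in 3′-UTRs (33 of 76 canonical), 14.1 points in CDS (18 of 39) and 5.60 points in introns (58 of 160), but none of these passed a Fisher's exact test (p = 0.815, 0.0832 and 0.142, unadjusted).

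SLC interactions lay in 3′-UTRs more often than those of other genes. A 3′-UTR alone was the label of 76 interactions at 47 genes, 25.6% (21.0 to 30.8) against 17.6% (17.1 to 18.1), a difference of 7.98 points (3.33 to 13.3; Fisher's exact p = 0.000713, adjusted p = 0.00357). With 1 interaction per gene, the one at the lowest coordinate, it was 8.76 points and only just passed (Fisher's exact, adjusted p = 0.0496). The lowest coordinate is nearest the 3′ end in minus-strand genes and nearest the 5′ end in plus-strand genes. The region kept thus depends on strand, so this recount cannot show how clustering within a gene affects the 3′-UTR difference. CDS alone was less frequent, at 13.1% (9.76 to 17.4) against 18.4% (17.8 to 18.9), a difference of -5.22 points (-8.64 to -0.876; Fisher's exact p = 0.0191, adjusted p = 0.0318). By the same Fisher's exact test this call was lost without SLC6A11 (-4.37 points, adjusted p = 0.102) and without SLC7A2 (-5.02 points, adjusted p = 0.0508). Introns alone held 160 interactions, 53.9% (48.2 to 59.5) against 55.7% (55.0 to 56.3). The intron difference of -1.81 points (-7.53 to 3.82) did not pass (Fisher's exact p = 0.557, adjusted p = 0.696). A further 17 regions had several labels, such as CDS and 3′-UTR, 3 lay in 5′-UTRs and 2 in unclassified exons.

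**Figure D2:**
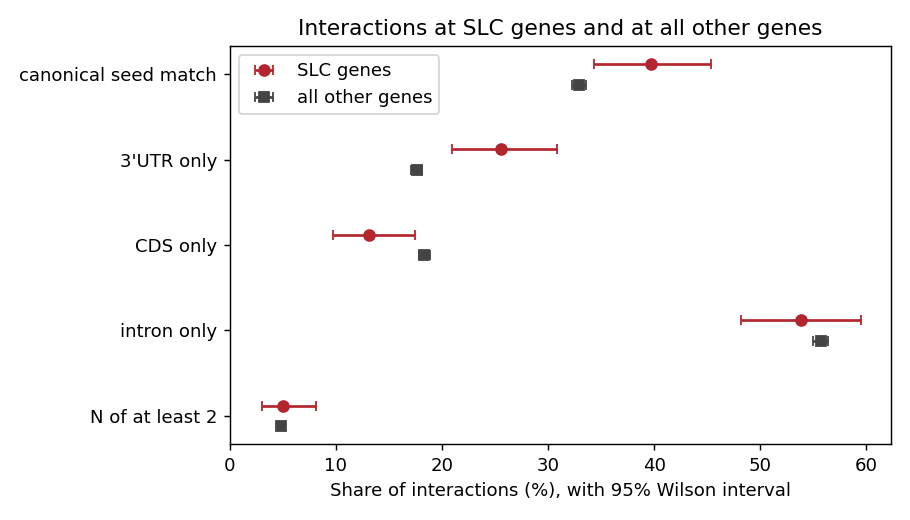
The 5 tested shares of interactions (%, horizontal axis) at SLC genes (circles) and at all other genes (squares), with 95% Wilson intervals. The 3′-UTR share stands at 25.6% and 17.6%, the canonical share at 39.7% and 32.9% and the CDS share at 13.1% and 18.4%, while introns and N of at least 2 overlap.

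Most interactions rested on a single read. N was 1 in 282 SLC interactions and at least 2 in 15, which is 5.05% (3.08 to 8.16) against 4.81% (4.54 to 5.11) at other genes. The difference of 0.236 points (-1.75 to 3.36) did not pass (Fisher's exact p = 0.785, adjusted p = 0.785). Of these 15, 10 had a canonical match, 66.7% (41.7 to 84.8), against 38.3% (32.8 to 44.1) of the 282 seen once. At other genes the shares were 53.3% and 31.9%. Besides those named above, the interactions with N = 2 included miR-130a-3p with a 6mer in the 3′-UTR of SLC25A23, a mitochondrial carrier of ATP and phosphate, and miR-320a with a 7mer-m8 in an intron of SLC23A2, a vitamin C transporter. At SLC20A2, a phosphate transporter, miR-25-3p had a 7mer-m8 in an intron and miR-4279 a bulged match in the 3′-UTR. miR-374a-5p at SLC38A1, miR-181b-5p at SLC5A12, a sodium-coupled lactate transporter, and miR-3676-5p at SLC52A2, a riboflavin transporter, had no canonical match.

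Pairing along the miRNA followed nearly the same course as at other genes, with seed pairing forced at regions that held a seed match. Position 4 was paired in 87.9% of SLC duplexes (83.7 to 91.1) and 85.9% of the others, position 9 in 56.6% and 57.7%, and position 15 in 75.1% and 71.0%. The mean number of paired seed bases was 5.45 ± 1.64 (SD, n = 297 interactions) against 5.38 ± 1.59, and that of paired bases from position 9 onward was 8.99 ± 2.42 against 8.88 ± 2.54. The median free energy score was -19.9, with quartiles of -23.8 and -15.8, against -19.5 (-23.4 and -15.9). The 7 duplex classes of the table differed by at most 2.08 points, and class 4, with a mean of 1.93 paired seed bases at SLC genes against 5.85 in the other classes, held 10.1% and 9.96%. Canonical matches began in the first 37 of the 75 positions in 97 of 118 SLC interactions, 82.2% (74.3 to 88.1), against 82.9% at other genes. None of these values was tested.

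**Figure D3:**
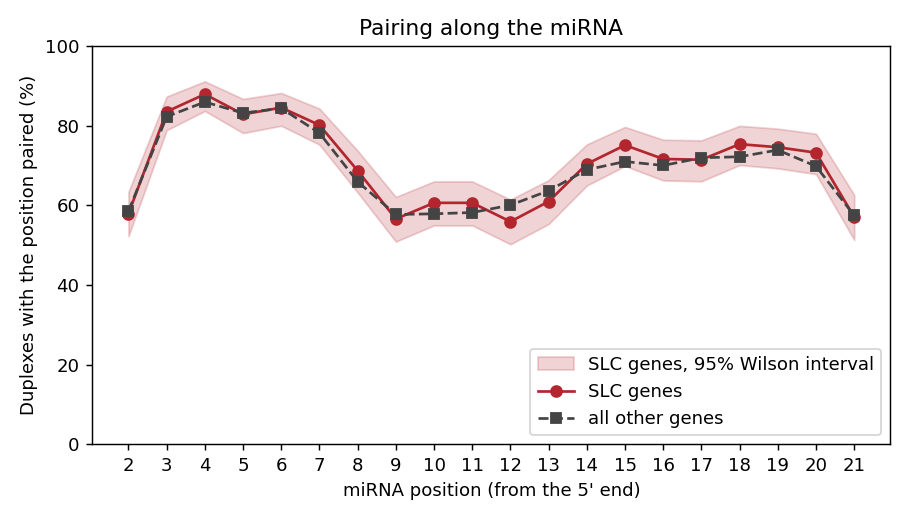
Share of duplexes with each miRNA position paired (%, vertical axis) along positions 2 to 21 (horizontal axis) at SLC genes (circles, shaded 95% Wilson interval) and at all other genes (squares). Both lines peak at position 4 (87.9% and 85.9%), stand at 56.6% and 57.7% at position 9 and reach 70.4% and 68.9% at position 14.

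Interactions were spread thinly over the SLC genes. Of the 117 genes, 50 had 1 interaction, 30 had 2 and 37 had 3 or more, and 60.7% had at least 1 canonical match, against 55.9% of other genes. The median was 2 interactions in both sets, and the highest count was 18 at SLC genes and 81 at other genes. All 117 gene IDs matched RefSeq with the same symbol. RefSeq lists 386 protein-coding genes whose current symbol fits the same rule, and 125 of these (32.4%) had an interaction, against 6649 of 20052 protein-coding genes (33.2%). The 8 genes beyond the 117 carry an older symbol in the table and held 14 interactions that are not counted here. The libraries give no level of the mRNAs themselves, and how far expression sets these counts was not tested.

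The 10 genes with the most interactions held 85 of the 297 (28.6%), each with at least 6. SLC6A11, a GABA transporter, had 18 interactions with 12 miRNAs, spread over 112536 nt on the plus strand of chromosome 3, and 17 of them were in introns. Of these, 5 belonged to miR-17-5p, with match types from a 7mer-m8 to bulged and mismatched seeds. The remaining interaction, of miR-29b-3p, was labelled 3′-UTR although it had the lowest coordinate of the 18 on a plus-strand gene. SLC7A2, a cationic amino acid transporter, had the opposite layout, with 10 of its 12 interactions in the 3′-UTR, 1 in CDS, 1 with both labels and none in an intron, all with N = 1. They came from 11 miRNAs and 6 were canonical, among them an 8mer of miR-96-5p, and miR-27a-3p had 2 regions with the same 7mer-A1.

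SLC38A2 had 9 interactions with 9 miRNAs and 12 reads, 6 in the 3′-UTR, where miR-26a-5p had an 8mer and miR-25-3p and miR-186-5p a 7mer-m8. Its close relative SLC38A1 had 8, and none was canonical. SLC40A1 had 7, with 12 reads and 6 canonical matches. Besides the miR-17 family sites in the 3′-UTR these were 7mer-A1 matches of miR-365a-3p and miR-103a-3p in CDS and an offset 6mer of miR-18a-5p in the 5′-UTR. SLC29A2 had 6, of which 3 lay in the 3′-UTR and 1 in an intron, and its median free energy score of -25.6 was below the -19.9 of all SLC interactions. SLC25A13, the aspartate–glutamate carrier citrin, had 6, with an 8mer of miR-29a-3p in an intron.

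At 3 of the 10 genes every interaction was intronic. These were SLC39A11, a zinc transporter (7, median free energy score -13.9), SLC25A21, a mitochondrial carrier of oxodicarboxylates (6), and SLC44A5, of the choline transporter-like family (6), with regions spread over 298795, 412622 and 369968 nt. All of these interactions had N = 1. Over all SLC genes, 46 of 117 had only intronic interactions, beside 2404 of the 6952 other genes.

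**Figure D4:**
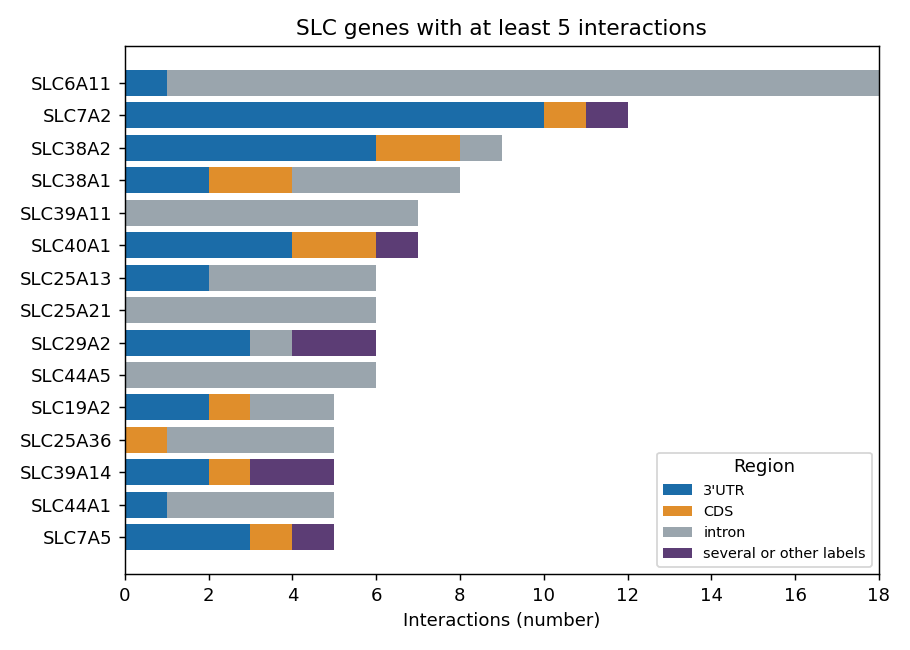
Number of interactions (horizontal axis) at each SLC gene with at least 5, stacked by region label. SLC6A11 has 18, of which 17 are intronic, SLC7A2 has 12, of which 10 are in the 3′-UTR, and SLC39A11, SLC25A21 and SLC44A5 are intronic throughout.

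There were 20 pairs of SLC interactions whose regions overlapped within a gene, at 12 genes, and in 4 of them the seed match fell on the same position. Of these 4, 3 were the pairs of miR-17 family members at SLC40A1, SLC25A28 and SLC29A2 and 1 was the pair of miR-27a-3p regions at SLC7A2. In the other pairs the miRNAs had different seeds or different positions, as for miR-186-5p (7mer-m8) and miR-26a-5p (8mer) in the 3′-UTR of SLC38A2 and miR-122-5p (6mer) and miR-193b-3p (7mer-m8) at SLC7A5. Of 284 pairs of a miRNA and an SLC gene, 10 had more than 1 interaction.

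Grouped by what their families carry, the largest group was that of amino acids and neurotransmitters, with 77 interactions at 19 genes, 28 of them in 3′-UTRs and 29 canonical. Mitochondrial carriers of family SLC25 followed with 54 at 22 genes (13 in 3′-UTRs, 24 canonical). Families for metals had 33 at 12 genes, inorganic ions 24 at 15, vitamins and nucleosides 21 at 7, and sugars and sodium-coupled solutes 17 at 9. Vitamins and nucleosides had 9 of 21 in 3′-UTRs, whereas sugars and sodium-coupled solutes had 1 of 17. Families for choline (13 interactions) and organic ions (10) were mostly intronic, with 12 and 8 intronic regions.

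The canonical share was highest among groups of 10 or more for nucleotide sugars, with 11 of 16 (68.8%, 44.4 to 85.8). This group is the whole family SLC35, placed by family number, and the substrate of each member was not checked. It was 20.0% for organic ions (5.67 to 51.0) and 30.8% for choline and for the vesicular and phosphate carriers (both 12.7 to 57.6). The nucleotide sugar sites included an 8mer of miR-455-5p in an intron of SLC35A1 and 7mer matches at SLC35A3 and SLC35B4 in 3′-UTRs. Each group rests on few interactions and no difference between groups was tested. The gene with the most interactions in its group was SLC4A7, a sodium bicarbonate cotransporter, for inorganic ions (4), SLC2A13, a myo-inositol transporter, for sugars (4), SLC18B1 for vesicular and phosphate carriers (4), SLC22A23 for organic ions (4) and SLC35F5 for nucleotide sugars (3).

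**Figure D5:**
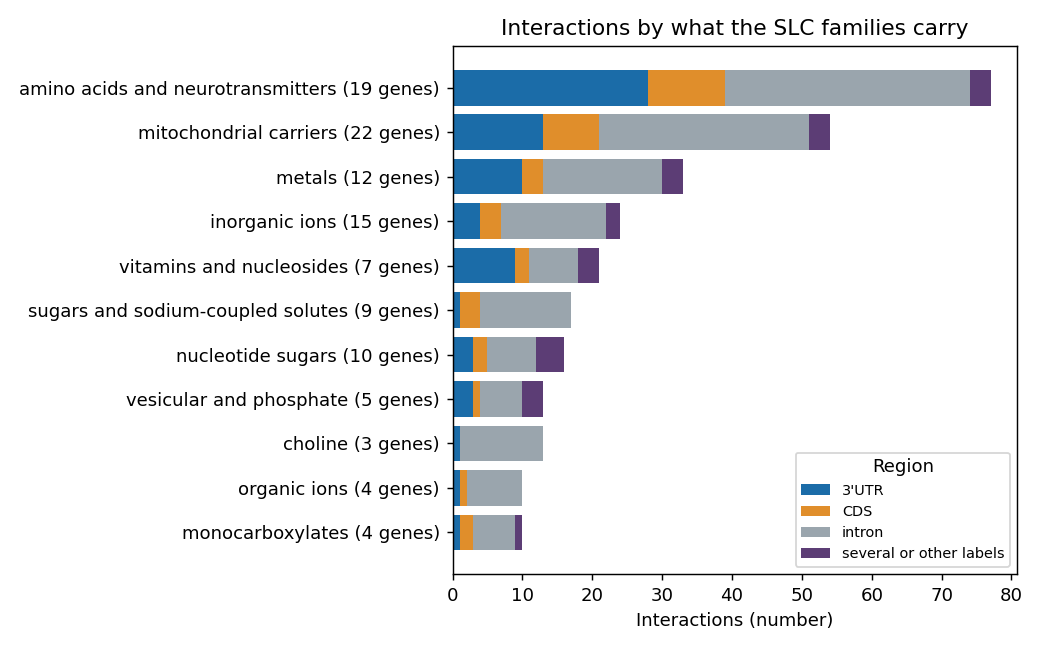
Number of interactions (horizontal axis) for each group of SLC families with at least 10, stacked by region label, with the number of genes in parentheses. Amino acid and neurotransmitter families lead with 77, of which 28 are in 3′-UTRs, and choline families are intronic in 12 of 13.

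A list of 24 SLC genes, chosen as liver transporters or as known targets of miRNAs, was looked up. Of these, 15 had an interaction, against 33.2% of protein-coding genes. The list was written with earlier results of these data known, so nothing is read from that count. Among amino acid carriers, SLC7A5 had 5, 4 of them canonical, and SLC1A5 had 2. The 4F2 heavy chain SLC3A2, the partner of SLC7A5, had 1 of miR-17-5p in CDS with a bulged match, and the cystine–glutamate exchanger SLC7A11 had 1 of miR-16-5p in an intron without a seed match. Among metal carriers, SLC39A14, which takes up zinc, iron and manganese, had 5, and SLC30A10, a manganese exporter, had 3. SLC16A1 had 4, with an offset 6mer of miR-192-5p in CDS. SLC12A2, the sodium–potassium–chloride cotransporter, had 2, with an 8mer of miR-320b in CDS, and SLC27A2, a fatty acid transporter, and SLC33A1, the acetyl-CoA transporter, had 1 each with no canonical match.

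The other 9 had no interaction. They were the glucose transporters SLC2A1 and SLC2A2, the bile acid transporter SLC10A1, the organic ion transporter SLC22A7, the bile acid-CoA ligase SLC27A5, the amino acid transporter SLC38A4, the iron importer SLC11A2, the citrate carrier SLC25A1 and the phosphate transporter SLC20A1. For each, 0 interactions allows up to 0.0137% of the interactions with a gene symbol, which is a limit on detection in these pooled chimeras. By the rule for strong matches, 6 interactions at 5 genes had an 8mer in a 3′-UTR. These were SLC29A2 with miR-17-5p and miR-106b-5p, SLC7A2 with miR-96-5p, SLC25A45, of the mitochondrial carrier family, with miR-92a-3p, SLC38A2 with miR-26a-5p and SLC7A5 with miR-122-5p. Their free energy scores ran from -30.3 for SLC29A2 with miR-17-5p to -19.8 for SLC7A5. At SLC7A5 and SLC38A2 the scored duplex did not pair the whole seed.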

How the data were processed

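The authors mapped reads to hg18 with Bowtie after CASAVA 1.8.2 (submitters' processing notes), sought a miRNA in each read, collapsed PCR duplicates and deposited 1 table pooled over all libraries. N is a deposited count of cloned chimeric reads, not normalized, and the minimum free energy is a deposited score from RNAhybrid, run with pairing forced at seed positions where a region had a seed match. The seed position is a deposited value of another kind, counted along the target region of 75 nt. Which gene annotation was used is not stated. The depth of single libraries was not analysed, since the table is pooled.

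Each interaction counted once. The 5 shares were compared by two-sided Fisher's exact test with Benjamini–Hochberg adjustment over the 5 and a threshold of 0.05. Intervals are 95% Wilson intervals for shares and Newcombe intervals for differences and cover only counting error. For counts of 0 the limit is 3 counts of the total. A region counted as 3′-UTR, CDS or intron only where that was its single label. RefSeq (GRCh38.p14) was used for names and miRNA sequences, since no genome of the build hg18 was used here and target sequence is not printed. The genes named are the 10 with the most interactions, those with N of at least 3 and those with an 8mer or repeated canonical match in a 3′-UTR. To these come a list of 24 liver transporters or known miRNA targets and the first gene of each role. One item of the list is not reported here. A few others are named as examples, chosen after their values were seen. The members, lists and rules were chosen with earlier results of these data known. Alternatives were other ways to count interactions, regions and seed matches. The tests were checked on simulated shares drawn independently. That check cannot show the effect of interactions clustered within a gene. Python 3.11.15, scipy 1.17.1, pandas 2.3.3 and statsmodels 0.14.6 were used.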

Additional observations from a re-analysis of the deposited data

How the results depend on the processing

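Of 44 alternatives over the 5 shares, 28 kept the direction and the side of the threshold (or, for values without a test, stayed within the interval of the difference). Values are differences in percentage points, SLC genes minus other genes. Counting SLCO genes as members took the canonical difference to 5.21 (Fisher's exact, adjusted p = 0.0919). Only interactions with N of at least 2 left 15 SLC interactions, and the canonical difference was then 13.4, the 3′-UTR difference 10.9 and the CDS difference turned to 0.345, none past the threshold. Within one region the canonical difference was 1.55 in 3′-UTRs, 14.1 in CDS and 5.60 in introns, with fewer interactions in each and none past the threshold. The CDS difference was -4.37 without SLC6A11 and -5.02 without SLC7A2, both past the threshold no longer. Leaving out SLC7A2 was chosen after seeing the data. It left the 3′-UTR difference at 5.55 (Fisher's exact, adjusted p = 0.0318) and turned the intron difference to 0.463. The intron difference also turned to 3.84 with 1 interaction per gene and to 1.24 with SLCO genes. The interaction kept per gene was the one at the lowest coordinate, so the region it lay in depends on the strand of the gene. The difference in N of at least 2 turned to -1.75 with 1 interaction per gene, -0.0497 in 3′-UTRs, -0.357 in introns and -0.287 with a threshold of 3 reads. The intron and N differences passed no test in the main comparison either, and the cause of these changes was not tested. Depth limits every share that rests on repeated reads, with 15 such interactions. No paired analysis was possible because the table is pooled over libraries and carries no replicate.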

Other observations

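The SLCO genes, organic anion transporters outside the rule, had 23 interactions at 4 genes. SLCO5A1 had 19 of them, all in introns, with 2 canonical matches and an N of up to 5. SLCO1B3, an uptake transporter of hepatocytes, had 2, and SLCO2A1, a prostaglandin transporter, and SLCO4C1 had 1 each. Under the current RefSeq symbols a further 8 genes would count as SLC genes. They held 14 interactions under older names, among them TMEM104 and DIRC2 with 2 each.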
